A study of Mus musculus with 6 samples.

Results

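The genes of the fibroblast extracellular matrix were followed in NIH/3T3 cells, mouse fibroblasts that grow as an established line, after silencing of Aldoa, the gene of the glycolytic enzyme aldolase A. The set was a list of 58 symbols (collagens, glycoproteins, proteoglycans, crosslinking enzymes, procollagen helpers, proteases and their inhibitors), and 47 of them had a row in the expression table of 18001 genes. Col11a1, Col15a1, Eln, Postn, Lum, Mmp3, Mmp9, Mmp10, Mmp13, Timp1 and Timp3 had no row and were not analysed here. Cells received either 4 pooled siRNAs that target Aldoa (siAldoa, 3 libraries) or with non-targeting control siRNAs (siCtrl, written siCTR in the sample labels, 3 libraries), grown in DMEM with 10% FCS and harvested at 48 h, when poly(A) RNA was sequenced. Both groups were the same line and differed in the siRNAs given. A single pool was used, so an effect of the pool on other transcripts cannot be told apart from an effect of Aldoa.

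Collagens are secreted as triple helices. The fibrillar types (I, III, V) build the banded fibres of connective tissue and are the main product of fibroblasts, while type IV collagen forms the sheet-like network of basement membranes together with laminins, nidogens and perlecan. Their chains are folded in the endoplasmic reticulum with the help of chaperones such as HSP47, trimmed and crosslinked outside the cell, and taken apart by metalloproteinases that are held in check by TIMP proteins.

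Values are CPM, the reads of a gene scaled to an effective library size, and not to gene length. Every library held between 3692341 and 3771129 reads, and 3 reads corresponded to 0.786 to 0.822 CPM. Aldoa stood at 522, 536 and 545 CPM in siCtrl replicates 1, 2 and 3 and at 62.9, 69.2 and 72.0 CPM in siAldoa replicates 1, 2 and 3 (log2 fold change -2.96, standard error 0.052, limma adjusted p = 1.3e-21). Of the 8 fibroblast markers checked all 8 were in the table, led by Vim at 3149 to 3779 CPM, and 6 of them passed the test: Pdgfrb (1.14 on the log2 scale, limma adjusted p = 2.0e-08), Pdgfra (0.50), Thy1 (0.23) and Prrx1 (0.22) rose, and Vim (-0.22) and S100a4 (-0.17) fell. The summed level of 7 macrophage markers in the table was 19.4 to 26.8 CPM in siCtrl and 25.9 to 29.3 CPM in siAldoa, of which Cd14 alone passed the test, and Ptprc, Adgre1 and Itgam were at most 3.01 CPM. The 4 endothelial markers in the table summed to at most 9.00 CPM, the 4 epithelial ones to at most 11.2 CPM and the 2 adipocyte ones to at most 1.59 CPM in any library. Sox9 at up to 39.5 CPM stood alone among 5 chondrocyte markers, and Runx2 stood at up to 90.9 CPM with Alpl at most 1.09 CPM among 2 osteoblast markers. Runx2 was higher in limma (limma adjusted p = 0.011) but not in DESeq2 (0.064). Of the epithelial markers Cdh1 fell, while Krt8 had 3, 6 and 6 reads in siCtrl and 4, 0 and 0 in siAldoa and passed in limma (limma adjusted p = 0.045) but not in edgeR (0.11) or with the replicate block (0.097). The summed level of 6 markers of contractile fibroblasts was 322 to 343 CPM in siCtrl and 472 to 510 CPM in siAldoa, and 3 of them, Acta2, Tagln and Actg2, rose. The called fibroblast markers thus went in both directions, as the matrix genes did, while the called contractile markers rose. The part of these marker changes in the matrix changes described here was not tested. In bulk RNA, fewer cells in a given state and less RNA per cell cannot be told apart. Replicates 1 and 2 of a group were closer to each other (the chi-square of their read counts, divided by its degrees of freedom, was 1.12 in siCtrl and 1.11 in siAldoa) than to replicate 3 (2.07 to 3.24), and the methods give another step for adding spike-in RNA in replicate 1. Averaging replicates 1 and 2 into 1 sample was tried after this closeness was seen. The counts of lower and higher matrix genes were then 10 and 19, as with all libraries, but Col6a2 lost its call and Fbln2 gained one.

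The matrix genes moved in both directions. Lower were 4 fibrillar collagen chains (Col1a1, Col1a2, Col5a1, Col5a2), the collagen chaperone Serpinh1 and the protease inhibitor Timp2, among others. Higher were the type IV collagen chains Col4a1, Col4a2 and Col4a5, the laminin chains Lamb1 and Lamc1, the minor collagen Col12a1, fibronectin, versican, tenascin C and thrombospondin 2, among others. Fibre glycoproteins, matricellular proteins, proteoglycans and proteases held calls in both directions. In limma on log2(CPM + 1), with an adjusted p under 0.05 over all 18001 genes, 29 of the 47 matrix genes (61.7%) passed, against 20.4% of all genes. Of these, 10 were lower (10.0% of all genes) and 19 higher (10.4% of all genes) in siAldoa. The median log2 fold change of the 47 genes was 0.08, against -0.0023 over all genes. Most matrix genes were abundant, which makes a small change easier to detect: of the 40 with a mean of at least 10 CPM, 28 passed (70.0%), against 32.6% of the 10059 genes at that level. Many of the 40 lie far above 10 CPM, so that comparison is not matched for abundance. The list and its roles were chosen with earlier results of these data known, so these shares describe the list and test nothing. The siCtrl and siAldoa libraries did not overlap for 12 genes that were lower in siAldoa (17.1% of all genes) and for 21 that were higher (16.7% of all genes). Where a role group is said to hold no lower or no higher gene, an unadjusted limma p under 0.05, edgeR and DESeq2 gave 0 in that direction as well. Leaving out any 1 library kept 24 of the 29 calls, and the other 5 are named with their genes below. With each replicate number left out of both groups in turn, 14 of the 29 calls held throughout. They were Bgn, Col1a1, Col1a2, Col20a1, Col4a1, Col4a2, Col4a5, Col5a2, Fbln5, Fn1, Serpinh1, Thbs2, Timp2 and Vcan. Log2 fold changes are differences of log2(CPM + 1), and the added 1 makes those of scarce genes smaller than their true change.

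**Figure D1:**
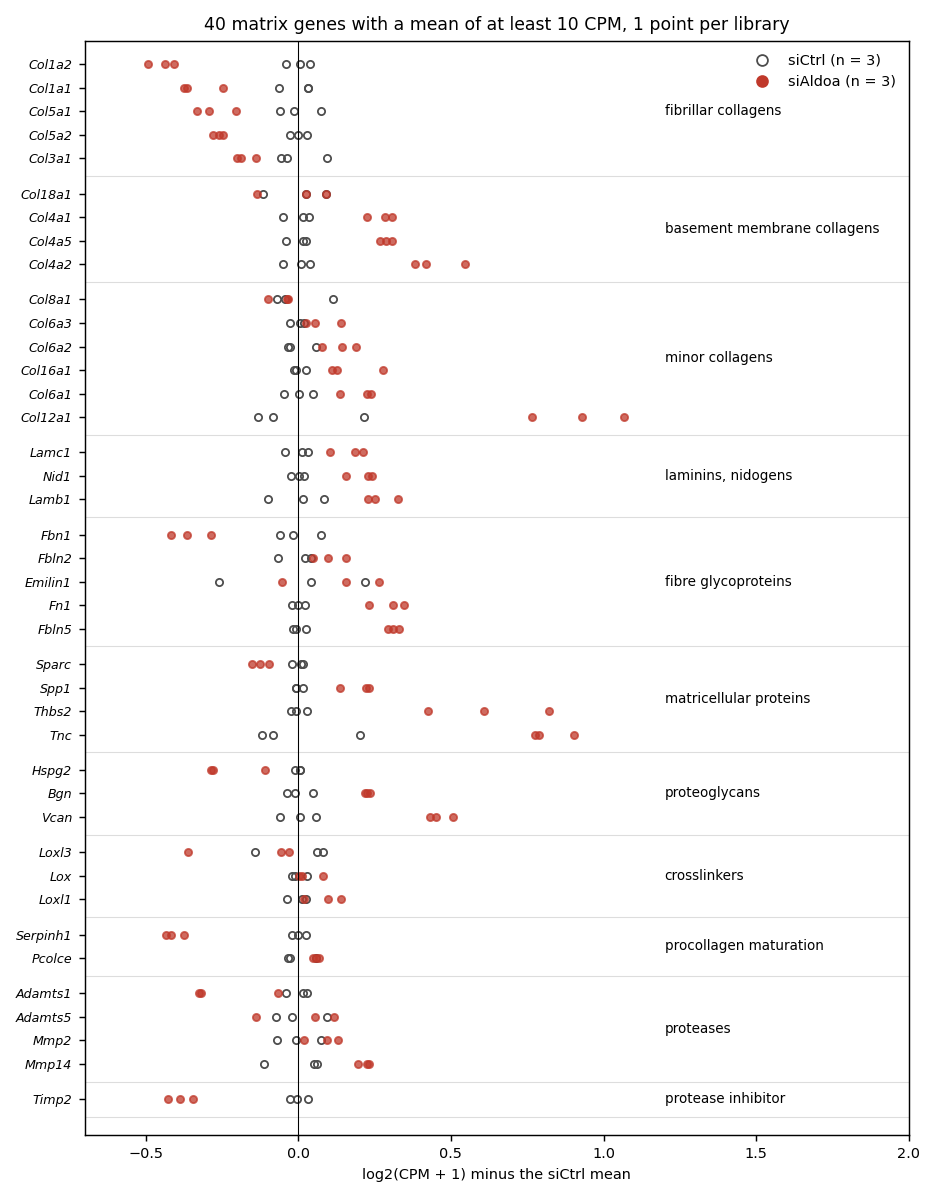
Each row is 1 matrix gene with a mean of at least 10 CPM, grouped by role; the x axis is log2(CPM + 1) minus the siCtrl mean, with 1 open point per siCtrl library and 1 filled point per siAldoa library (n = 3 per group). The siAldoa points lie left of the siCtrl points for all 5 fibrillar collagens shown and right of them for Col4a1, Col4a2 and Col4a5.

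Per kb of transcript, the only scale on which levels of different genes can be compared, biglycan (Bgn) was the highest of the 47 in siCtrl with 1001 CPM per kb. It was followed by Col1a2 (925), Sparc (878), Serpinh1 (705), Spp1 (587), Col1a1 (539), Lox (505) and Timp2 (489 CPM per kb). In siAldoa Bgn stood at 1170.3, Sparc at 805, Col1a2 at 679.7, Spp1 at 673, Serpinh1 at 531, Lox at 517, Col1a1 at 429 and Timp2 at 374 CPM per kb. Sparc and Spp1 thus moved ahead of Col1a2 and Serpinh1, respectively. At the other end, Col5a3, Lama4, Nid2 and Loxl2 had at most 4 reads in any library and Fmod between 2 and 6, and none of these 5 passed the test. The 47 genes together took 2.69% to 2.71% of the reads of a siCtrl library and 2.52% to 2.65% of a siAldoa library. The share of the fibrillar collagens went from 0.895% to 0.926% in siCtrl to 0.689% to 0.741% in siAldoa, and that of the basement membrane collagens from 0.0794% to 0.0818% to 0.1002% to 0.108%, without overlap between the groups in either case.

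**Figure D2:**
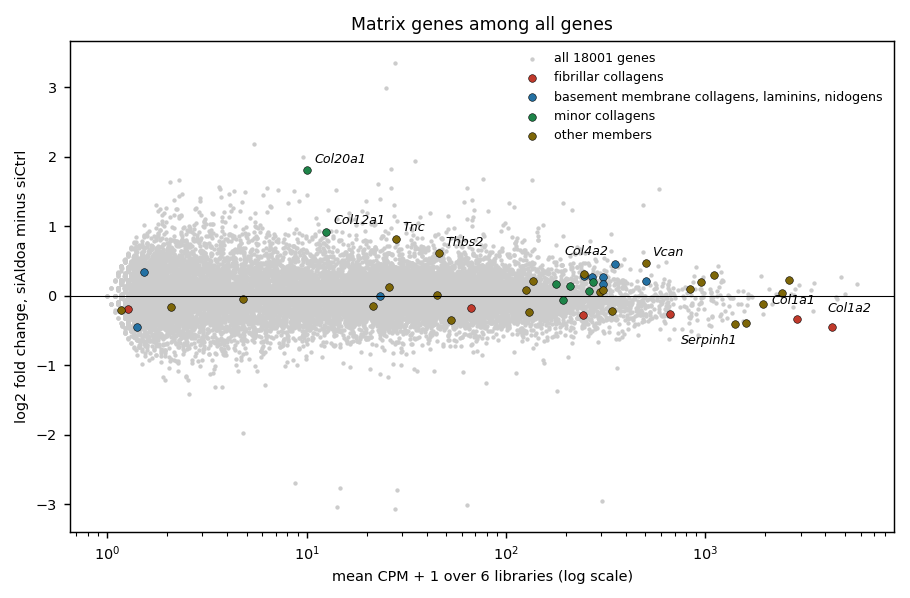
The x axis is the mean CPM + 1 over 6 libraries on a log scale and the y axis the log2 fold change, siAldoa minus siCtrl; grey points are all 18001 genes and coloured points the 47 matrix genes by role. Col20a1 and Col12a1 stand high among genes of low abundance, and Col1a1, Col1a2 and Serpinh1 lie below 0 at the abundant end.

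To show the DNA in front of genes that moved in opposite directions, 2 lower and 2 higher called genes were taken. They had the lowest and highest log2 fold changes among the called genes with a RefSeq window free of annotated exons. Some called genes with larger changes, such as Col1a2 and Col20a1, were therefore passed over. For each gene taken, the 150 bases before the RefSeq start site are printed. They are in GRCm38 (mm10), 5′ to 3′ on the strand of the gene, Serpinh1 at chr7:99353240-99353389 (minus), Col5a1 at chr2:27886275-27886424 (plus), Tnc at chr4:64047016-64047165 (minus) and Thbs2 at chr17:14694263-14694412 (minus). Capitals mark matches, on either strand, to GGGCGG (the letters of the GC box), CCAAT (of the CCAAT box), TATAA (of the TATA box) or CATTCC (of the core recognised by TEAD factors).
Serpinh1: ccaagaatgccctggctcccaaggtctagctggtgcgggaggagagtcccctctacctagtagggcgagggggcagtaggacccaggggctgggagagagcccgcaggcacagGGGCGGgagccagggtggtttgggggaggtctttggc
Col5a1: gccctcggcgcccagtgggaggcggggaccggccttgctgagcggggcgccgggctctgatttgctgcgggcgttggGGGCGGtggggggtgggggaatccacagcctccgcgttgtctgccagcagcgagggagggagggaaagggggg
Tnc: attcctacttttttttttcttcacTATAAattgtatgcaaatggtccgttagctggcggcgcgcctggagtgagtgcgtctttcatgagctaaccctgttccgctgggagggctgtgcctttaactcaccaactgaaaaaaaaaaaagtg
Thbs2: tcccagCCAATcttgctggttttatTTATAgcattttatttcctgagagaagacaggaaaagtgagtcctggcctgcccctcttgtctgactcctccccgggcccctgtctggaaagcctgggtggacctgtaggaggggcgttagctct
The lower genes Serpinh1 and Col5a1 held a match to GGGCGG in these 150 bases, and the higher genes Tnc and Thbs2 one to TATAA, Thbs2 also one to CCAAT. Both TATAA matches lie towards the end of the window farthest from the start site, that of Thbs2 on the other strand. They were not read as TATA boxes, and the printed windows are examples only. RefSeq promoter windows were found for 33 of the 47 genes, with 38 start sites. In the 250 bases before the start, GGGCGG was in 25 of the 38 windows (65.8%), against 32.7% of all 32851 windows. It was in 7 of 8 windows of lower genes, 13 of 20 of higher genes and 5 of 10 of genes not called. CCAAT was in 15 of the 38 (39.5%, against 33.8% of all). By call, it was in 2 of 8 windows of lower, 11 of 20 of higher and 2 of 10 of genes not called. TATAA was in 7 (18.4%, against 22.8%) and CATTCC in 5 (13.2%, against 12.6%). These are matches of letters, counted as a description, and some genes have more than 1 window.

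Of the 6 fibrillar collagens on the list with a row, 4 fell and none rose, and all 5 with a mean of at least 10 CPM had siAldoa libraries below every siCtrl library. Col1a2 (chr6:4504814-4541544), the alpha 2 chain of type I collagen, stood at 5079, 4961 and 4806 CPM in the 3 siCtrl libraries and at 3516, 3656 and 3734 CPM in the 3 siAldoa libraries (log2 fold change -0.44, standard error 0.027, limma adjusted p = 2.6e-11). Its partner Col1a1 (chr11:94936224-94953042), the alpha 1 chain, stood at 3264, 3264 and 3059 CPM in siCtrl and at 2465, 2482 and 2691 CPM in siAldoa (log2 fold change -0.33, standard error 0.033, limma adjusted p = 7.8e-08). The means were 4949 ± 137 and 3635 ± 111 CPM for Col1a2 and 3196 ± 118 and 2546 ± 126 CPM for Col1a1 (SD, n = 3), which left 0.735 of the control level of Col1a2 and 0.797 of that of Col1a1. The Col1a1 to Col1a2 ratio of CPM was higher in every siAldoa library (0.679 to 0.721) than in siCtrl (0.637 to 0.658). Type V collagen nucleates and limits the width of type I fibres. Its chain Col5a1 stood at 279, 262 and 254 CPM in siCtrl and 216, 210.1 and 229.6 CPM in siAldoa (log2 fold change -0.28, standard error 0.048, limma adjusted p = 0.00016). Col5a2, the other common chain, stood at 709.7, 736 and 722 CPM in siCtrl and 603, 609 and 596 CPM in siAldoa (log2 fold change -0.26, standard error 0.033, limma adjusted p = 2.8e-06). No siAldoa library of these chains reached the siCtrl range. Col3a1, which forms fine fibres with type I, had 66.8, 67.8 and 74.3 CPM in siCtrl and 60.4, 60.9 and 63.1 CPM in siAldoa. The groups of Col3a1 did not overlap, but the difference missed the threshold (log2 fold change -0.18, standard error 0.071, limma adjusted p = 0.087).

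Basement membrane collagens went the other way, with 3 of 4 higher and none lower. Col4a2 (chr8:11312805-11449287, plus strand) stood at 297, 304 and 285 CPM in siCtrl and 385, 396 and 432 CPM in siAldoa (log2 fold change 0.45, standard error 0.045, limma adjusted p = 8.5e-08). Col4a1 (chr8:11198423-11312826, minus strand), which pairs with it in the main type IV trimer, stood at 283, 279 and 267 CPM in siCtrl against 323, 337 and 342 CPM in siAldoa (log2 fold change 0.27, standard error 0.042, limma adjusted p = 3.9e-05). These genes lie head to head, and their first exons share 22 bases on opposite strands (chr8:11312805-11312826, plus strand), shown because both genes begin in this stretch and rose together. Matches are not marked by capitals in this stretch, although it holds the letters GGGCGG.
Col4a1 and Col4a2, shared first bases: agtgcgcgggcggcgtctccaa
The Col4a2 to Col4a1 ratio was 1.05 to 1.09 in siCtrl and 1.17 to 1.26 in siAldoa, so Col4a2 gained more than Col4a1. Col4a5, a chain of specialised basement membranes, stood at 224, 225 and 215 CPM in siCtrl against 270.4, 267 and 274 CPM in siAldoa (log2 fold change 0.29, standard error 0.043, limma adjusted p = 2.5e-05). Every siAldoa library was above every siCtrl library for these 3 genes. Col18a1, the collagen from which endostatin is cut, had 22.7, 20.5 and 23.8 CPM in siCtrl against 20.2, 22.7 and 23.8 CPM in siAldoa, and the groups overlapped (log2 fold change -0.01, standard error 0.12). The summed CPM of type I collagen (Col1a1 and Col1a2) was 14.1 to 14.4 times that of type IV collagen (Col4a1 and Col4a2) in the siCtrl libraries and 8.31 to 8.45 times in the siAldoa libraries. This ratio is not scaled to transcript length, so it compares libraries and not the levels of the collagen types. Its genes were already called in opposite directions, so the gap between the groups restates those calls. For 1 value in 3 libraries against 3, an exact permutation test cannot go below p = 0.1 (two-sided).

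**Figure D3:**
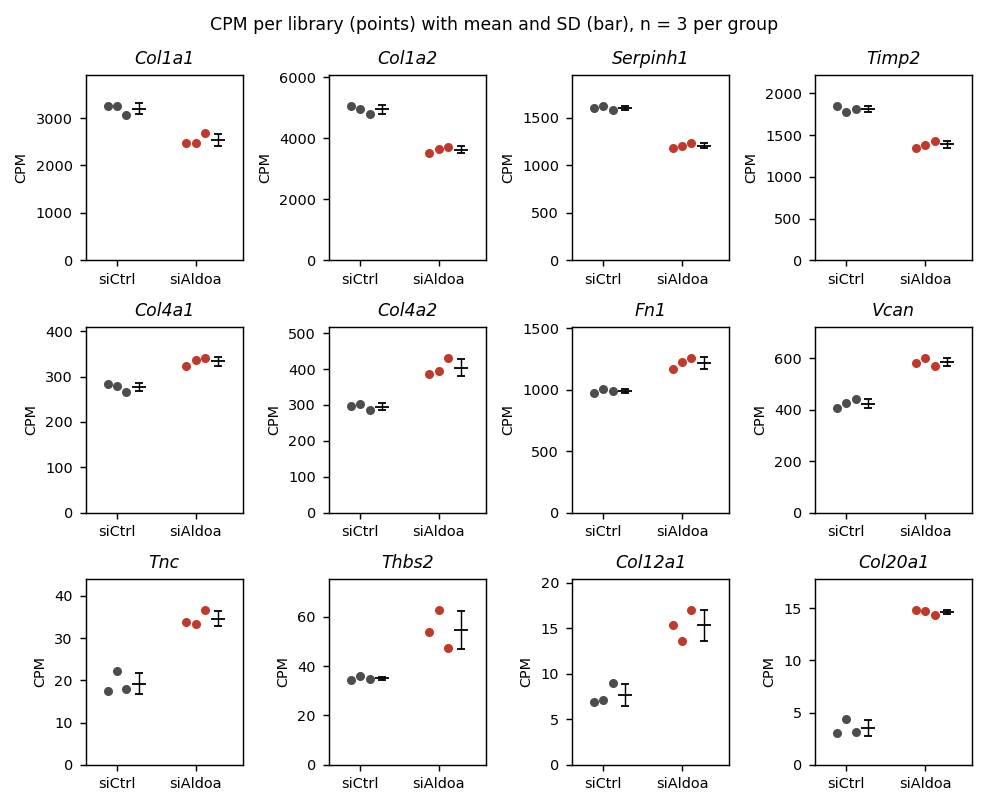
CPM (y axes, from 0) of 12 matrix genes in each siCtrl and siAldoa library, with 1 point per library and the mean and SD beside them (n = 3). The groups are apart in every panel, with Col1a1, Col1a2, Serpinh1 and Timp2 lower and the other 8 genes higher in siAldoa.

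Among the minor collagens 5 of 7 rose in limma and none fell; DESeq2 called 3, without Col6a2 (adjusted p = 0.13) and Col16a1 (0.066). Col12a1, a fibril-associated collagen that sits on the surface of type I fibres, stood at 6.85, 7.11 and 9.00 CPM in siCtrl and 15.4, 13.6 and 17.0 CPM in siAldoa (log2 fold change 0.92, standard error 0.18, limma adjusted p = 0.00044) on 25 to 65 reads per library. Col20a1 (chr2:180986535-181018363), of the same fibril-associated family, showed the largest change of the 47 genes, with 3.01, 4.38 and 3.17 CPM in siCtrl and 14.8, 14.7 and 14.4 CPM in siAldoa (log2 fold change 1.80, standard error 0.20, limma adjusted p = 5.0e-07), and it ranked 7 among all 18001 genes by log2 fold change. Its reads are uncertain, because 79 exon bases are shared with a transcript on the same strand, 9230112E08Rik (chr2:180983924-180987275). That transcript had 11, 11 and 17 reads in siCtrl and 46, 34 and 54 in siAldoa (log2 fold change 1.51, standard error 0.23, limma adjusted p = 2.4e-05), beside 11, 16 and 12 and 55, 55 and 55 reads of Col20a1, and the shared bases alone cannot say from which of them a read came. Type VI collagen forms beaded filaments around cells. Col6a1 stood at 253, 244 and 261 CPM in siCtrl against 278, 298 and 295 CPM in siAldoa (log2 fold change 0.20, standard error 0.044, limma adjusted p = 0.0019). Its chain Col6a2 stood at 194, 206 and 194 CPM in siCtrl against 209, 226 and 219 CPM in siAldoa (log2 fold change 0.14, standard error 0.048, limma adjusted p = 0.045). Col6a2 was at the edge of the threshold: with the replicate number as a block its limma adjusted p was 0.054, and it also missed the threshold without siCtrl replicate 1 or 3 or siAldoa replicate 2 or 3 (up to 0.30 with libraries left out). Col6a3, the third chain, had 249, 257 and 255 CPM in siCtrl against 264, 258 and 279 CPM in siAldoa and did not pass (log2 fold change 0.07, limma adjusted p = 0.28). Col16a1 stood at 170.1, 166 and 166 CPM in siCtrl against 183, 181 and 203 CPM in siAldoa (log2 fold change 0.17, standard error 0.052, limma adjusted p = 0.020). It lost its call when any 1 siCtrl library or siAldoa replicate 3 was left out, and its highest limma adjusted p with libraries left out was 0.18. Col8a1, a short-chain collagen, overlapped between the groups (log2 fold change -0.06, standard error 0.052).

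The laminin and nidogen group shared the direction of type IV collagen: 3 of 5 rose and none fell. Lamb1, the beta 1 chain of laminin, stood at 259, 228 and 247 CPM in siCtrl and 291, 286 and 307 CPM in siAldoa (log2 fold change 0.27, standard error 0.048, limma adjusted p = 0.00023). Nid1, which links laminin to type IV collagen, had 466, 471 and 457 CPM in siCtrl against 518, 549.8 and 545 CPM in siAldoa (log2 fold change 0.21, standard error 0.037, limma adjusted p = 0.00018). Lamc1, the gamma 1 chain, had 291, 295 and 280.2 CPM in siCtrl against 311, 335 and 329 CPM in siAldoa (log2 fold change 0.17, standard error 0.043, limma adjusted p = 0.0061). The groups were apart for all 3, although without siAldoa replicate 2 the limma adjusted p of Lamc1 was 0.057. Hspg2, in contrast, which encodes perlecan, the heparan sulphate proteoglycan of the same membranes, stood at 362, 367 and 367 CPM in siCtrl and 299, 300.4 and 338 CPM in siAldoa (log2 fold change -0.23, standard error 0.045, limma adjusted p = 0.00074). The basement membrane genes thus did not move as a block, and siAldoa replicate 3 lay closest to the siCtrl level of Hspg2.

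Of the 5 glycoproteins of fibres in the table, 2 rose and 1 fell. Fn1 (chr1:71585520-71653200), fibronectin, onto which collagen fibres are assembled, stood at 976, 1004 and 989.7 CPM in siCtrl and 1164, 1228 and 1259 CPM in siAldoa (log2 fold change 0.30, standard error 0.033, limma adjusted p = 3.7e-07). Fbln5, needed for elastic fibres, had 224, 219 and 217 CPM in siCtrl against 273, 277 and 269 CPM in siAldoa (log2 fold change 0.31, standard error 0.043, limma adjusted p = 7.5e-06). Fbn1, fibrillin 1 of the microfibrils, moved the other way with 58.1, 56.4 and 61.9 CPM in siCtrl and 48.0, 45.4 and 43.7 CPM in siAldoa (log2 fold change -0.36, standard error 0.079, limma adjusted p = 0.0019). The siCtrl and siAldoa libraries of these 3 genes did not overlap. Fbn1 shares 2442 of its 12128 exon bases with a gene on the other strand, and whether reads were counted by strand is not given in the sources used here. Fbln2, which binds fibronectin and elastic fibres, had the highest level of the group per kb (169 CPM per kb in siCtrl, against 119 for Fn1). It had 823, 834 and 773 CPM in siCtrl against 866, 837 and 903 CPM in siAldoa and missed the threshold narrowly (log2 fold change 0.10, standard error 0.036, limma adjusted p = 0.052), while the adjusted p was 0.042 in edgeR, 0.052 in DESeq2 and 0.12 in limma with the replicate block. Emilin1, a glycoprotein of elastic fibres, overlapped between the groups, with 27.7, 24.3 and 19.6 CPM in siCtrl against 28.6, 22.7 and 26.4 CPM in siAldoa (log2 fold change 0.12, standard error 0.13).

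Matricellular proteins are secreted into the matrix to signal to cells more than to bear load, and all 4 in the table passed the test, 3 of them higher. Tnc (chr4:63959785-64047015), tenascin C, stood at 17.5, 22.2 and 17.99 CPM in siCtrl and 33.7, 33.4 and 36.7 CPM in siAldoa (log2 fold change 0.82, standard error 0.12, limma adjusted p = 1.2e-05). Thbs2 (chr17:14665500-14694235), thrombospondin 2, had 34.5, 35.8 and 34.9 CPM in siCtrl against 54.0, 62.8 and 47.4 CPM in siAldoa (log2 fold change 0.62, standard error 0.095, limma adjusted p = 3.6e-05). Their promoter sequences are among those printed above. Spp1, osteopontin, had more reads and a smaller change, with 893, 879.8 and 881 CPM in siCtrl and 973, 1039.7 and 1031 CPM in siAldoa (log2 fold change 0.20, standard error 0.033, limma adjusted p = 8.8e-05). It shares 309 of its 1648 exon bases with an annotated locus on the same strand that has no row in the table. Sparc, a collagen-binding protein, was the single one to fall, with 2039, 1988 and 2029 CPM in siCtrl against 1819, 1889 and 1849 CPM in siAldoa (log2 fold change -0.12, standard error 0.027, limma adjusted p = 0.0018). No library of one group entered the range of the other for any of these 4 genes. The fall of Sparc depended on the scaling, since its log2 fold change was 0.00 after quantile normalization.

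Among the proteoglycans, Vcan and Bgn rose and Hspg2 fell. Vcan (chr13:89655312-89742509), versican, a large chondroitin sulphate proteoglycan, stood at 406, 425 and 441 CPM in siCtrl and 579.9, 602 and 571 CPM in siAldoa (log2 fold change 0.46, standard error 0.039, limma adjusted p = 5.1e-09). Bgn, the small leucine-rich proteoglycan biglycan, had 2502, 2402 and 2358 CPM in siCtrl against 2816, 2849 and 2828 CPM in siAldoa (log2 fold change 0.23, standard error 0.027, limma adjusted p = 1.2e-06). In both, the lowest siAldoa library was above the highest siCtrl library. Decorin (Dcn), closely related to biglycan and known for binding type I fibres, was scarce, with 3.56, 3.56 and 4.50 CPM in siCtrl and 3.24, 4.01 and 3.93 CPM in siAldoa (log2 fold change -0.04, standard error 0.24), and this depth could not show a moderate change.

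Of the 4 enzymes in the table that crosslink collagen and elastin, none passed the test in limma. Lox, lysyl oxidase, the most abundant, stood at 2363, 2446 and 2378 CPM in siCtrl and 2416, 2532 and 2401 CPM in siAldoa (log2 fold change 0.03, standard error 0.028, limma adjusted p = 0.48). Loxl1 had 124, 118 and 122 CPM in siCtrl against 129.8, 123 and 134 CPM in siAldoa (log2 fold change 0.08, standard error 0.055, limma adjusted p = 0.33). Loxl3, a less abundant family member, had 22.7, 22.4 and 19.3 CPM in siCtrl against 16.5, 20.6 and 20.9 CPM in siAldoa (log2 fold change -0.15, standard error 0.13, limma adjusted p = 0.49). The groups overlapped for all 3. The fold change of Col1a1 (-0.33) lies many standard errors of Lox away from 0, whereas the wider error of Loxl3 leaves room for a change of that order. Loxl3 also shares exon bases with Htra2 on the other strand (log2 fold change of Htra2 -0.33, limma adjusted p = 0.0055).

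Of the genes for procollagen maturation, Serpinh1 fell with the fibrillar collagens. Serpinh1 (chr7:99345376-99353239) encodes HSP47, the collagen-specific chaperone, and stood at 1602, 1630.4 and 1580.3 CPM in siCtrl and 1187, 1201 and 1237 CPM in siAldoa (log2 fold change -0.41, standard error 0.029, limma adjusted p = 4.5e-10). The mean went from 1604 ± 25.2 to 1208 ± 26.0 CPM (SD, n = 3). Pcolce, which enhances removal of the procollagen C-terminal end, overlapped between the groups, with 299.9, 283 and 281 CPM in siCtrl against 298, 299.9 and 302 CPM in siAldoa (log2 fold change 0.06, standard error 0.042, limma adjusted p = 0.38). It shares 112 exon bases with Fbxo24 on the same strand.

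Among the proteases and their inhibitors, Timp2 showed the clearest change. Timp2 (chr11:118301069-118355740), an inhibitor of metalloproteinases, stood at 1855, 1781 and 1809 CPM in siCtrl and 1348, 1387 and 1429 CPM in siAldoa (log2 fold change -0.39, standard error 0.030, limma adjusted p = 1.4e-09). Mmp14, the membrane-bound collagenase that activates MMP2, rose from 129.8, 131 and 116 CPM in siCtrl to 147, 144 and 146 CPM in siAldoa (log2 fold change 0.22, standard error 0.057, limma adjusted p = 0.0074), but without siCtrl replicate 3, the lowest library, the limma adjusted p was 0.061. Mmp2, a gelatinase, overlapped between the groups, with 295, 283 and 312 CPM in siCtrl against 317, 300.1 and 324 CPM in siAldoa (log2 fold change 0.08, standard error 0.045, limma adjusted p = 0.24). The ratio of Mmp14 to Timp2 CPM was 0.0639 to 0.0734 in siCtrl and 0.102 to 0.109 in siAldoa, and that of Mmp2 to Timp2 0.159 to 0.173 and 0.216 to 0.235, so both were higher in each siAldoa library. Both ratios carry the fall of Timp2, and Mmp2 itself was not called. Adamts1, a protease of versican and other proteoglycans, had 143, 141 and 136 CPM in siCtrl and 112, 134 and 112 CPM in siAldoa (log2 fold change -0.24, standard error 0.064, limma adjusted p = 0.0091). Replicate 2 was the siAldoa library closest to siCtrl. Without siAldoa replicate 1 or 3 the limma adjusted p of Adamts1 was 0.096 or 0.097, and without siCtrl replicate 1 or 2 it was 0.068 or 0.064. Adamts5, an aggrecanase, did not separate the groups (log2 fold change 0.01, standard error 0.090).

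**Figure D4:**
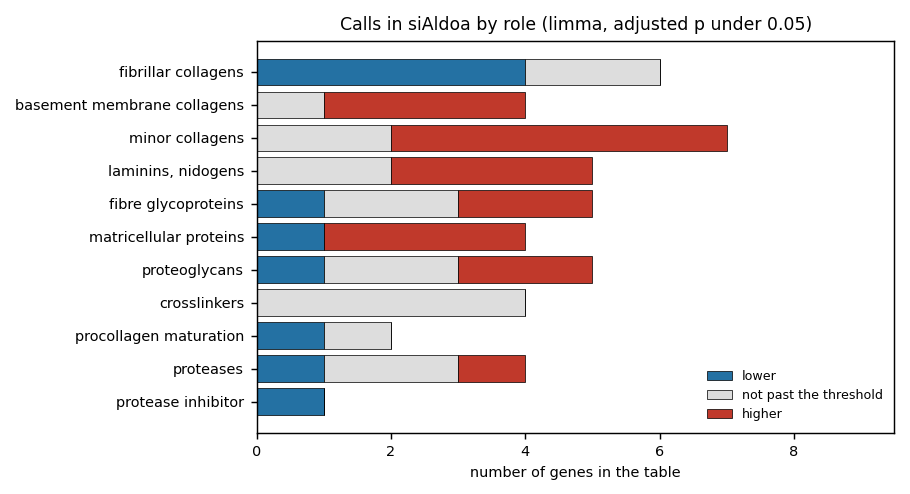
Bars show, for each role, how many genes in the table were lower, not past the threshold or higher in siAldoa (x axis, number of genes; limma, adjusted p under 0.05). The 4 lower fibrillar collagens stand against 3 higher genes among the basement membrane collagens, 5 among the minor collagens and 3 among laminins and nidogens, while the crosslinkers have none.

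The other genes of collagen production and matrix binding were taken from lists of enzymes, receptors and further family members. Of 85 such genes in the table, 7 were lower and 11 higher (21.2% together, against 20.4% of all genes). The count of higher genes was 6 without siCtrl replicate 3 and 7 without siAldoa replicate 2. Among 26 enzymes and helpers that modify, export or trim collagen, 7 were higher and 1 lower in limma (30.8% called, against 20.4% of all genes and 32.6% of those with at least 10 CPM), and 18 were not called. Plod2, a lysyl hydroxylase, stood at 59.7, 66.2 and 64.8 CPM in siCtrl and 93.1, 91.7 and 95.3 CPM in siAldoa (log2 fold change 0.55, standard error 0.066, limma adjusted p = 1.5e-06). The prolyl 4-hydroxylase subunits P4ha2 and P4ha1 rose as well (log2 fold changes 0.52 and 0.27), as did the prolyl 3-hydroxylase P3h1 (0.32), Plod3 (0.19), the procollagen C-proteinase Bmp1 (0.30) and Tmem38b (0.46). Bmp1 and Tmem38b missed the threshold with the replicate block (limma adjusted p = 0.055 and 0.059), in DESeq2 (0.15 and 0.14) and without any 1 of 5 libraries (up to 0.19 and 0.12), and Plod3 without siCtrl replicate 3 or siAldoa replicate 1 (up to 0.066). The exception was Adamts3, a procollagen N-proteinase, with 61.6, 61.5 and 61.6 CPM in siCtrl and 44.5, 46.5 and 44.3 CPM in siAldoa (log2 fold change -0.44, standard error 0.075, limma adjusted p = 0.00012). Among 22 matrix receptors, 4 were lower and 1 higher (22.7% called, near the share of all genes). Itga6, the laminin-binding integrin alpha 6, fell from 134, 135 and 134 CPM to 88.8, 97.0 and 89.8 CPM (log2 fold change -0.54, standard error 0.057, limma adjusted p = 1.9e-07). Itga3, another laminin-binding integrin chain, and the syndecans Sdc4 and Sdc1 fell too (log2 fold changes -0.41, -0.32 and -0.19), while Itgb1, the common beta 1 chain, rose (0.12). Sdc1 missed the threshold in DESeq2 (adjusted p = 0.080) and without any 1 of 4 libraries (up to 0.071), and Cd44, not called in limma (0.062), passed with the replicate block (0.015).

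Col27a1, a fibrillar collagen that was not on the list, rose, unlike the 4 fibrillar chains above. It stood at 77.8, 80.2 and 86.0 CPM in siCtrl and 138, 136 and 141 CPM in siAldoa (log2 fold change 0.76, standard error 0.059, limma adjusted p = 1.6e-09). The remaining calls were of scarce genes. Col11a2, also a fibrillar collagen chain outside the list, had 4.11, 1.37 and 1.85 CPM in siCtrl against 4.32, 5.08 and 5.76 CPM in siAldoa (log2 fold change 0.89, standard error 0.28, limma adjusted p = 0.026). The fall of fibrillar collagens thus held for chains on the list and not for the whole class. Adamts4, an aggrecanase, had 1.64, 1.91 and 1.85 CPM in siCtrl against 2.43, 5.35 and 5.24 CPM in siAldoa (log2 fold change 0.88, standard error 0.27, limma adjusted p = 0.025). Adamts17 had 13.4, 8.21 and 10.1 CPM in siCtrl against 4.59, 6.95 and 5.76 CPM in siAldoa (log2 fold change -0.76, standard error 0.22, limma adjusted p = 0.013). Col19a1 was lower on very few reads, with 1.37, 1.64 and 2.12 CPM in siCtrl against 0.54, 0 and 0.786 CPM in siAldoa (log2 fold change -0.94, standard error 0.28, limma adjusted p = 0.017). For Col11a2, blocking by replicate number gave a limma adjusted p of 0.057. Each of these 4 lost its call when 1 of several single libraries was left out, with limma adjusted p values of up to 0.16 for Col11a2, 0.14 for Adamts4, 0.11 for Adamts17 and 0.12 for Col19a1.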

How the data were processed

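Poly(A) RNA of 3 siCtrl and 3 siAldoa libraries was analysed. According to the labels and methods, the authors built directional libraries, aligned reads to mm10 with Bowtie2 (2.2.7), subsampled them to equal numbers and counted them per gene; the deposited unit is CPM of an effective library size. Columns of the authors' own comparison (fold changes, p-values) were not used. The annotation release and use of strand are not given in the sources used here. All values (100%, tolerance 1e-06) were whole multiples of 1 read, so read counts were recovered from the deposited CPM. Groups, taken from the labels, were compared with limma (3.58.1, R 4.3.3) on log2(CPM + 1), with the prior variance following mean expression (trend), two-sided, Benjamini-Hochberg adjusted over 18001 genes, and with edgeR (4.0.16) and DESeq2 (1.42.0) on recovered reads. p-values rest only on the spread between these samples, and in limma the variance of a gene is drawn towards that of genes of similar mean expression. Without the trend, 18 of the 29 matrix calls were lost. Reads had no molecular identifiers, so copies of a molecule could not be told from separate molecules. Counting error judged from the depth may therefore be too small. Other alternatives were pseudocounts of 0.1 and 5, a filter on low values, TMM and quantile scaling, no trend, a replicate block, a minimum log2 fold change of 0.5 and libraries left out. On simulated data for this comparison (18001 genes, 100 changed per size), limma recovered 90% of changes of 1 and 28% of changes of 0.4 (log2), the replicate block 56% and 3%. The simulation changed far fewer genes than passed here, gave all genes the same dispersion and held no difference between replicates. Its shares therefore do not carry over to these data or to abundant genes.

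Gene positions and transcript lengths (longest protein-coding transcript) come from GENCODE M21 of GRCm38 (17932 identifiers found), promoter sequences from RefSeq (GRCm38.p6). Every matrix gene is named; per-library values are given for up to 3 higher and 3 lower called genes without overlap per role, the highest per kb, and 4 higher and 4 lower other matrix genes, with further genes added after their values were seen. The matrix genes, roles and other lists were chosen with earlier results of these data known.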

Additional observations from a re-analysis of the deposited data

How the results depend on the processing

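No called matrix gene changed direction under any alternative, and 8 of the 29 kept their call in every one but the minimum fold change: Col1a2, Col20a1, Col4a2, Fbln5, Serpinh1, Thbs2, Timp2 and Vcan. Lower and higher matrix genes numbered 10 and 19. The counts were 4 and 7 without a mean-variance trend, 0 and 4 with a minimum absolute log2 fold change of 0.5, and between 6 and 10 and between 10 and 19 with libraries left out. The lowest of these came from leaving out replicate 1 of both groups (6 lower) and replicate 3 of both groups (10 higher). Other matrix genes, 7 lower and 11 higher, numbered 3 and 3 without the trend, 3 and 5 with the minimum fold change, between 3 and 7 and between 3 and 8 with libraries left out, and 7 higher with DESeq2 (5 lower), which gave no adjusted p for Adamts4, Col11a2 and Col19a1. The cause of these differences was not tested. Fbln2 passed with the low-value filter, quantile scaling, edgeR and replicates 1 and 2 averaged. The Aldoa log2 fold change stayed between -3.00 and -2.89.

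Whether the replicate numbers pair the libraries was not settled. The labels give the number alone, while the methods add spike-in RNA at another step in replicate 1 than in replicates 2 and 3. Libraries with the same number deviated from their group means with correlations of -0.0090, 0.018 and 0.037 across all genes (replicates 1, 2 and 3), and of 0.19, 0.16 and 0.42 across 4962 genes of at least 50 CPM, a limit chosen after seeing the data, where siCtrl replicate 2 with siAldoa replicate 1 had 0.23. At that limit siCtrl replicate 3 had -0.31 and -0.19 with siAldoa replicates 1 and 2. In turn, siAldoa replicate 3 had -0.24 and -0.32 with siCtrl replicates 1 and 2. Deviations cancel out within a group, so these values are not independent. Replicate 3 thus stood apart from replicates 1 and 2 in both groups, for a reason that was not tested. The fit without the block was kept as designed. With the replicate block, 10 matrix genes were lower and 18 higher, and 8 and 8 of the other matrix genes; among the genes named, Col6a2, Bmp1, Tmem38b and Col11a2 lost their calls and Cd44 gained one. Depth limits what can be said of genes with few reads, such as Col5a3, Lama4, Nid2, Loxl2 and Fmod.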

Other observations

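Col6a6, a further chain of type VI collagen outside the list of 58, varied with the replicate number and not with the siRNA. It stood at 90.1, 93.8 and 30.7 CPM in siCtrl replicates 1, 2 and 3 and at 87.2, 77.5 and 35.1 CPM in siAldoa replicates 1, 2 and 3, so that replicate 3 was lowest in both groups. The gene was named after its values were seen.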
